A study of Nannospalax ehrenbergi and Mus musculus with 25 samples.

Results

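A set of 10 genes of muscle protein breakdown and the glucocorticoid response were followed through 25 RNA-seq libraries of the blind mole rat Spalax and the house mouse. The 10 genes were found by symbol among 27988 genes of the Spalax table and 47593 genes of the mouse table, and all 10 were present in both. They are 4 E3 ubiquitin ligase genes (Trim63, Fbxo32, Fbxo30 and Fbxo31), 2 FOXO transcription factor genes (Foxo1 and Foxo3) and 4 genes known to respond to glucocorticoids (Klf15, Fkbp5, Cebpd and Tsc22d3). They were selected on their known function and with measured values of these same libraries already in view, among them Foxo1 in untreated and tumor-bearing Spalax muscle, so their levels are given as a description.

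The animals were wild-caught Spalax, with treated animals estimated at between 2 and over 10 years old, and C57BL/6 mice aged 3 to 4 months. The 4 untreated female Spalax gave 1 muscle library each (control). Another 4 Spalax, injected with 1 mg of the carcinogen 3-methylcholanthrene (3MCA) in 500 µl, stayed free of tumors and gave 1 library each from the injected side (tolerant): males 2251 and 2261 at 18 months, male 2218 and female 2375 at 30 months. A further 4 injected Spalax developed a growth in the neck and gave 1 library of that growth (injected side, IS) and 1 of muscle opposite to it (uninjected side, UIS). Females 600 and 976 bore a granuloma at 14 and 16 months, female 2240 a fibrosarcoma at 18 months and male 2230 a fibrosarcoma at 30 months. The mouse control was 3 untreated male mice (M1, M2 and M5), and 3 male mice injected with 200 µg of 3MCA in 200 µl (1019, 1023 and 512) gave IS and UIS libraries at 14, 12 and 11 weeks, all with a fibrosarcoma. Each library is 1 animal or 1 side of an animal, so the spread within a group is a spread between animals. By the study's methods, Spalax controls were biopsied under anaesthesia and kept alive while animals with growths were killed. By the labels, libraries of Spalax with growths carried a single index and those of control and tolerant Spalax a dual index. These conditions and the group cannot be told apart.

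Skeletal muscle loses protein when breakdown outruns synthesis, and much of that breakdown runs through the ubiquitin-proteasome system, in which an E3 ligase tags a chosen protein for degradation. Trim63 (MuRF1) and Fbxo32 (atrogin-1) are the muscle ligase genes most widely used as markers of atrophy. FOXO transcription factors, which insulin and IGF signaling through Akt holds out of the nucleus, switch both on in fasting and disease. Glucocorticoids act through their receptor, encoded by Nr3c1, to raise Klf15, Fkbp5, Cebpd and Tsc22d3 in many tissues, and Trim63 and Foxo1 in muscle.

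Values below are reads per gene divided by the library's size factor, called normalised values. One read was worth 0.600 to 1.42 in Spalax and 0.517 to 1.44 in mice, and the libraries held 17025447 to 23386729 and 22143060 to 31179183 reads. The 2 tables were normalised separately, so levels are compared within a species. Group differences are on the log2(normalised value + 1) scale, with limma's standard error (SE) and a p-value adjusted by Benjamini-Hochberg over all genes tested, and a gene was called at an adjusted p of at most 0.05. Skeletal muscle marker genes, 11 of 14 listed being in the Spalax table, summed to 1079201 to 3400255 in the 12 Spalax libraries labelled control, tolerant or UIS, and to 487 to 7889 in the 4 IS libraries. Fibroblast markers of tolerant 2251 summed to 186754, against 21286 to 37763 in the controls, and its macrophage markers to 9453 against 1000 to 2055. One line of the labels of granuloma UIS 976 spells its animal as 979, while its title and specimen name read 976. As a library mixes many cells, fewer cells of a type and less RNA per cell cannot be told apart.

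Among the muscle ligase genes, Trim63, whose product tags sarcomere proteins, stood at 4806, 3115, 5346 and 3954 in control Spalax 1042, 1075, 2095 and 6038. In tolerant muscle it stood at 7495, 2724, 3582 and 55174 in animals 2218, 2251, 2261 and 2375. In UIS muscle it stood at 3625 and 36366 in granuloma bearers 600 and 976, and at 3763 and 3375 in fibrosarcoma bearers 2240 and 2230. Tolerant 2375 was 12.6 times and granuloma UIS 976 8.3 times the control median, and the other 6 injected animals lay within 0.622 to 1.71 times of it.

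Fbxo32, the muscle F-box ligase that acts on MyoD and eIF3f, stood at 3115, 3101, 2809 and 4822 in the controls. Tolerant values were 3206, 1795, 2948 and 24693, with 2375 alone above every control. UIS values were 9650 in 600, 38722 in 976, 3342 in 2240 and 2644 in 2230, so both granuloma bearers exceeded every control and both fibrosarcoma bearers did not. Fbxo30, whose ligase (MUSA1) is known as a BMP-repressed atrophy gene, ran from 398 to 530 in the controls. It reached 1588 in tolerant 2375 and 6061 in UIS 976, and ran from 330 to 826 in the other 6 injected animals. Fbxo31, a ligase gene best known for cyclin D1 turnover, kept to a narrow band of 1654 to 3739 over all 12 muscle libraries, with 2882 in 2375 and 2507 in 976.

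Of the FOXO genes, Foxo1 stood at 114, 151, 81.1 and 147 in the controls. Its tolerant values were 80.7 in 2218, 158 in 2251, 155 in 2261 and 638 in 2375. Its UIS values were 178 in 600, 2990 in 976, 369 in 2240 and 266 in 2230, and each of these lay above every control. Foxo3, the other main FOXO factor of muscle, ran from 1208 to 1540 in the controls. It stood at 3361 in tolerant 2375 and 4288 in UIS 976, while the other 6 injected animals lay between 1164 and 1705.

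The glucocorticoid-responsive genes followed the same 2 libraries to different degrees. Klf15, a Krüppel-like factor of amino acid catabolism, stood at 1021, 866, 1693 and 1075 in the controls. It was 4050 in tolerant 2375 against 442 to 1501 in the other tolerant animals, and 12908 in UIS 976 against 432 to 677 in the other UIS animals, where all 3 lay below every control. Fkbp5, a co-chaperone that damps the glucocorticoid receptor, stood at 297, 520, 291 and 1652 in the controls. It reached 3678 in tolerant 2375 and 10531 in UIS 976. The fibrosarcoma bearers held 1243 and 1252, above 3 of the 4 controls, and the remaining tolerant and granuloma values ran from 400 to 536.

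Cebpd, a C/EBP transcription factor of the acute stress response, stood at 378, 315, 1062 and 220 in the controls. It was 2565 in tolerant 2375 and 6108 in UIS 976, and 229 to 873 elsewhere among injected animals. Tsc22d3 (GILZ), a leucine zipper protein that mediates anti-inflammatory glucocorticoid effects, did not follow the pattern as closely. Its highest values were 20672 in UIS 976 and 20287 in control 2095, then 18063 in tolerant 2218 and 16862 in tolerant 2375, and all others lay between 4699 and 10958.

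**Figure D1:**
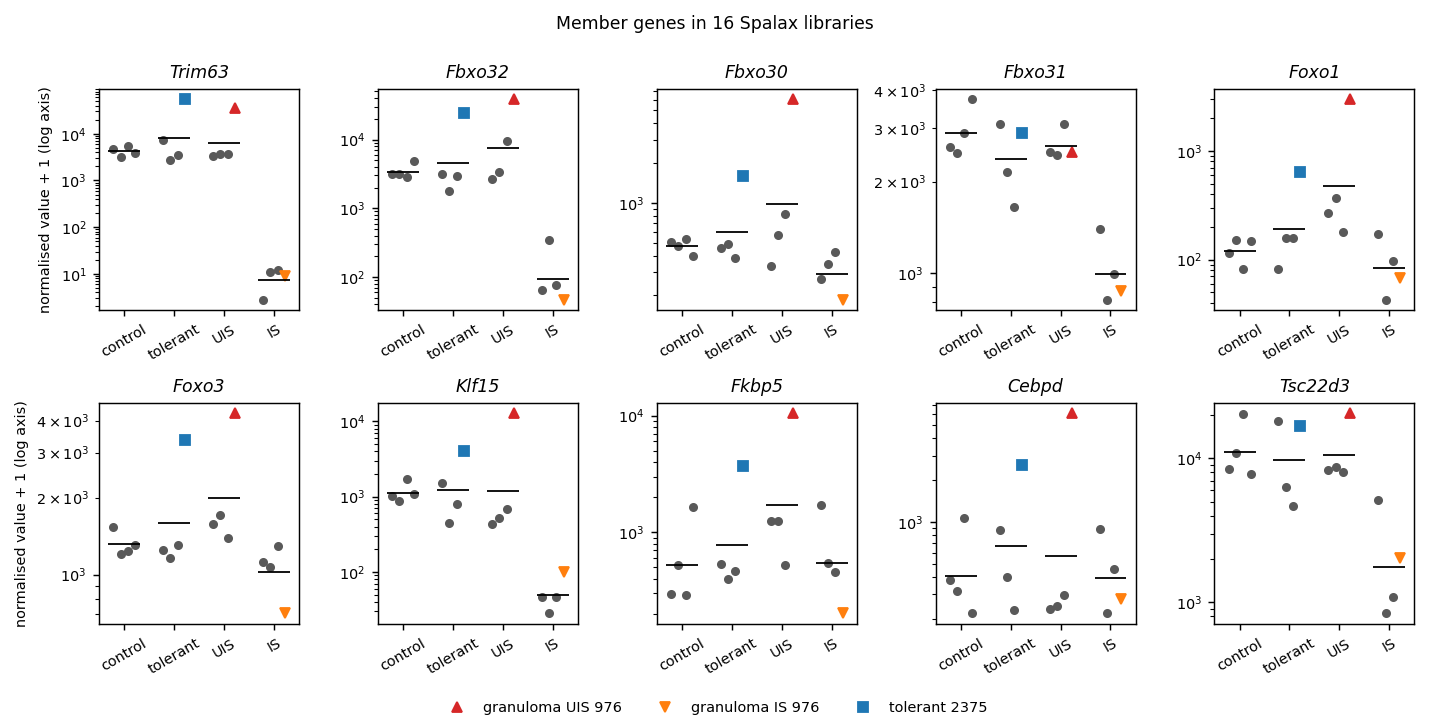
Normalised value + 1 (log axis) of the 10 genes in the 16 Spalax libraries, 1 point per library and a bar at each group's mean on the log scale; UIS and IS pool granuloma and fibrosarcoma. Tolerant 2375 (square) and granuloma UIS 976 (upward triangle) stand at least 2-fold above every control in 8 of the 10 genes, the exceptions being Fbxo31 and Tsc22d3. The downward triangle is the growth of animal 976.

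Each injected library was set against the highest of its species' controls, with a value at least 2-fold above it counted. In granuloma UIS 976, 8 of the 10 genes passed that line (Trim63, Fbxo32, Fbxo30, Foxo1, Foxo3, Klf15, Fkbp5 and Cebpd), against 9.56% of the 15175 genes measured. In tolerant 2375, those 8 genes passed it as well, against 2.22% of all genes. Both counts use the same 4 controls. In granuloma UIS 600 only Fbxo32 passed (2.17% of all genes), in fibrosarcoma UIS 2240 only Foxo1 (1.79%) and in fibrosarcoma UIS 2230 none (1.38%). None of the 10 passed in tolerant 2218 (0.936%), 2251 (12%) or 2261 (2%). The median of the 10 genes relative to the control median was 12.4-fold in 976 and 4.33-fold in 2375, and ran from 0.803-fold to 1.22-fold in the other 6 injected animals. These 2 libraries were picked out after their values were seen, so their counts are a description.

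Granuloma UIS 976 and tolerant 2375 stood low in fibroblast and macrophage markers. Fibroblast markers summed to 13293 in 976 and 7162 in 2375, the lowest pair of the 12 muscle libraries, against 18219 to 186754 in the other 10. Macrophage markers summed to 561 and 520, against 1000 to 9453. Endothelial markers summed to 8562 in 976 and 5813 in 2375, and adipocyte markers to 3869 and 6042, where the 12 libraries ran from 5813 to 10885 and from 3869 to 24135; in each only 1 of the pair was the lowest. Skeletal muscle markers summed to 1455254 in 976 and 2452980 in 2375, against 2002487 to 3331385 in the controls. The part of tissue makeup in the members' levels was not tested. Female 2375 was the only female among the tolerant animals, while all 4 controls and 3 of the 4 tumor-bearing Spalax were female too.

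**Figure D2:**
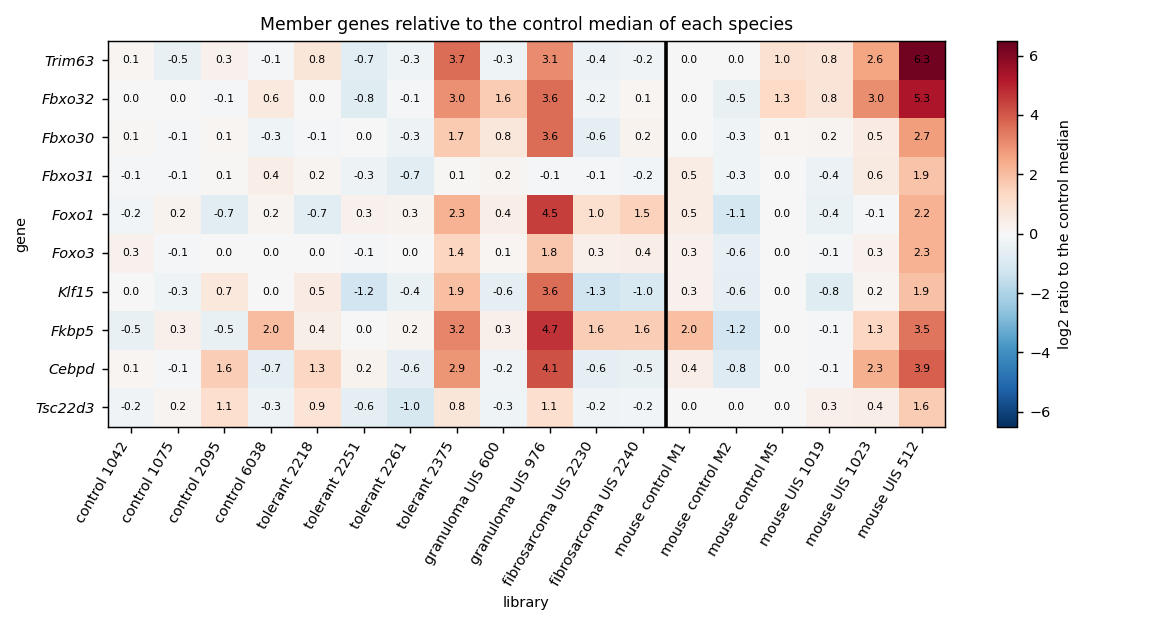
Log2 ratio of each gene (rows) to the control median of its species, for the 12 Spalax and 6 mouse libraries labelled control, tolerant or UIS (columns; the vertical line divides the species), with the ratio printed in each cell. Columns of tolerant 2375, granuloma UIS 976 and mouse UIS 512 are high in most rows, while fibrosarcoma UIS 2230 and 2240 are high in Foxo1 and Fkbp5 and low in Klf15.

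Control and tumor-bearing UIS muscle were compared as groups to ask how a growth on one side relates to expression on the other. None of the 10 genes was called by limma, and none of the 13909 genes tested was (0%). Foxo1 was chosen with this comparison seen, so no p is given for it. At an unadjusted p under 0.05, limma found 0 of the other members and 2315 genes. On recovered reads, edgeR found Fbxo30, Fbxo32 and Fkbp5 of the others at that line, among 2495 genes. DESeq2 found Fbxo30, Fbxo32, Fkbp5 and Foxo3, among 2722 genes. By adjusted p, edgeR called 0 members and 0 genes. DESeq2 called 0 members and 516 genes, with no adjusted p for 4 members. The Foxo1 difference was 1.99 (SE 0.75) over 4 against 4 libraries. As a description, Foxo1 was the only member with every UIS library above every control, as were 6.55% of all genes tested. Fkbp5 differed by 1.71 (SE 0.87, adjusted p = 0.349), Fbxo32 by 1.16 (SE 0.72, adjusted p = 0.433) and Fbxo30 by 1.06 (SE 0.74, adjusted p = 0.478). Trim63 differed by 0.60 (SE 0.69, adjusted p = 0.666). Without granuloma UIS 976 the Foxo1 difference was 1.11, that of Fkbp5 0.83 and that of Fbxo32 0.38. Trim63 then stood at -0.23, Klf15 at -1.08 and Cebpd at -0.66, against 0.07 for Klf15 and 0.48 for Cebpd with all libraries, and no member was called. The 10 genes divided into 8 positive and 2 negative differences with 976 and 5 and 5 without it.

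The granuloma and fibrosarcoma bearers, fitted apart against the 4 controls as an analysis chosen after seeing the data, differed in sign for several genes. With the granuloma pair, 9 of 10 differences were positive, with a median of 1.58. With the fibrosarcoma pair 3 were positive, Foxo1 at 1.38, Fkbp5 at 1.25 and Foxo3 at 0.32, and Klf15 stood at -1.25. No member was called in either fit, and the difference between the 2 pairs was not tested.

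Control and tolerant muscle were compared to ask what distinguishes injected muscle in which no tumor grew. No member was called by limma, nor any of 14020 genes (0%). At an unadjusted p under 0.05, limma found 0 members and 733 genes, edgeR 1 member, Trim63, and 851 genes, and DESeq2 0 members and 1017 genes. By adjusted p, edgeR called 0 members and 0 genes, and DESeq2 0 members and 60 genes, with no adjusted p for 3 members. Trim63 differed by 0.92 (SE 0.80, adjusted p = 0.923) and Cebpd by 0.72 (SE 0.72, adjusted p = 0.928). Without tolerant 2375, Trim63 stood at -0.01, Fbxo32 at -0.40 and Klf15 at -0.48, and 8 of the 10 differences were negative. With all 4 tolerant animals, 8 of the 10 were positive.

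Tolerant and tumor-bearing UIS muscle were compared directly as well. No member was called, against 1 of 14029 genes by limma (0.00713%). At an unadjusted p under 0.05, limma found 0 members and 718 genes; edgeR called 0 members and 1 gene, and DESeq2 0 members and 38 genes, with no adjusted p for 6 members. Foxo1 was 1.34 higher in UIS (SE 0.90, adjusted p = 0.880) and Fkbp5 1.14 higher (SE 0.97, adjusted p = 0.880). With 2375 and 976 both left out, an alternative chosen after seeing the data, these differences were 1.04 and 1.01 and no member was called. All 3 of these comparisons draw on overlapping sets of the same 12 libraries.

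**Figure D3:**
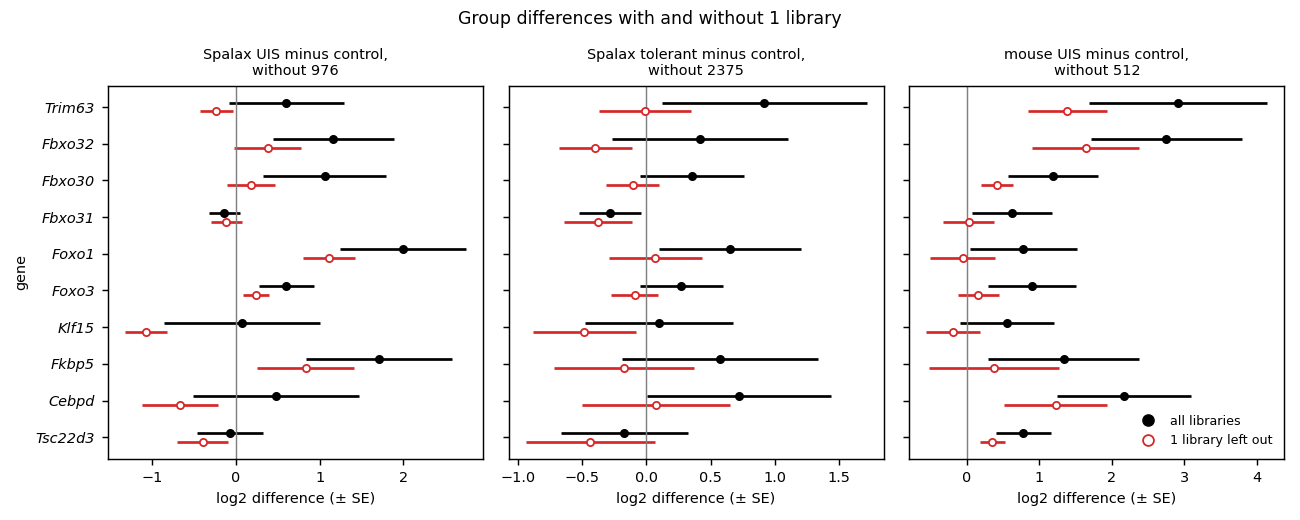
Log2 differences (points) with SE (bars) of the 10 genes for Spalax UIS minus control, Spalax tolerant minus control and mouse UIS minus control, with all libraries (filled) and without granuloma UIS 976, tolerant 2375 or mouse UIS 512 (open). Foxo1 in Spalax UIS moves from 1.99 to 1.11, and Trim63 in tolerant muscle from 0.92 to -0.01.

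In mice, Trim63 stood at 3011, 2991 and 5906 in controls M1, M2 and M5, and at 5402, 18019 and 236435 in UIS of 1019, 1023 and 512. Fbxo32 stood at 4648, 3365 and 11459 in the controls and at 8230, 37709 and 178089 in UIS. In both genes UIS 512 was highest, 1023 next, and 1019 within the controls' range. Cebpd showed that order too, with 1040, 428 and 770 in the controls and 706, 3833 and 11480 in UIS.

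Mouse UIS 512 was the highest of the 6 mouse muscle libraries in all 10 genes. Foxo1 stood at 7665 there, against 740 to 2260 in the controls, and Foxo3 at 4836 against 677 to 1204. Klf15 stood at 8442 against 1437 to 2681, and Fbxo31, which varied little in Spalax muscle, at 14517 against 3254 to 5494. Fkbp5 was uneven among the controls, with 5066 in M1, 553 in M2 and 1296 in M5, and reached 14687 in UIS 512. Fbxo30 and Tsc22d3 lay above every control in all 3 UIS libraries, Fbxo30 at 607, 778 and 3485 against 441 to 581, and Tsc22d3 at 6474, 6967 and 16251 against 5169 to 5354. That was so of 2 of the 10 members and 9.53% of the 14792 genes tested.

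By the 2-fold line above the highest control, all 10 genes passed in mouse UIS 512, against 11% of 15888 genes measured. In UIS 1023, Trim63, Fbxo32 and Cebpd passed (2.79% of all genes), and in UIS 1019 none did (5.53%). Adipocyte markers summed to 9484 in UIS 512, 82327 in 1023 and 39032 in 1019, against 86433 to 144707 in the mouse controls. Brown adipocyte markers summed to 26 in UIS 512, 12574 in 1023 and 20547 in 1019, against 35140 to 58758 in the controls. In the same order, fibroblast markers summed to 4063, 9957 and 29282, against 22517 to 56643. Macrophage markers summed to 291, 1765 and 2726, against 1733 to 3622. Skeletal muscle markers summed to 4424968, 1920857 and 2910589, against 1110592 to 2327936. The part of these tissue differences in the members' levels was not tested.

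**Figure D4:**
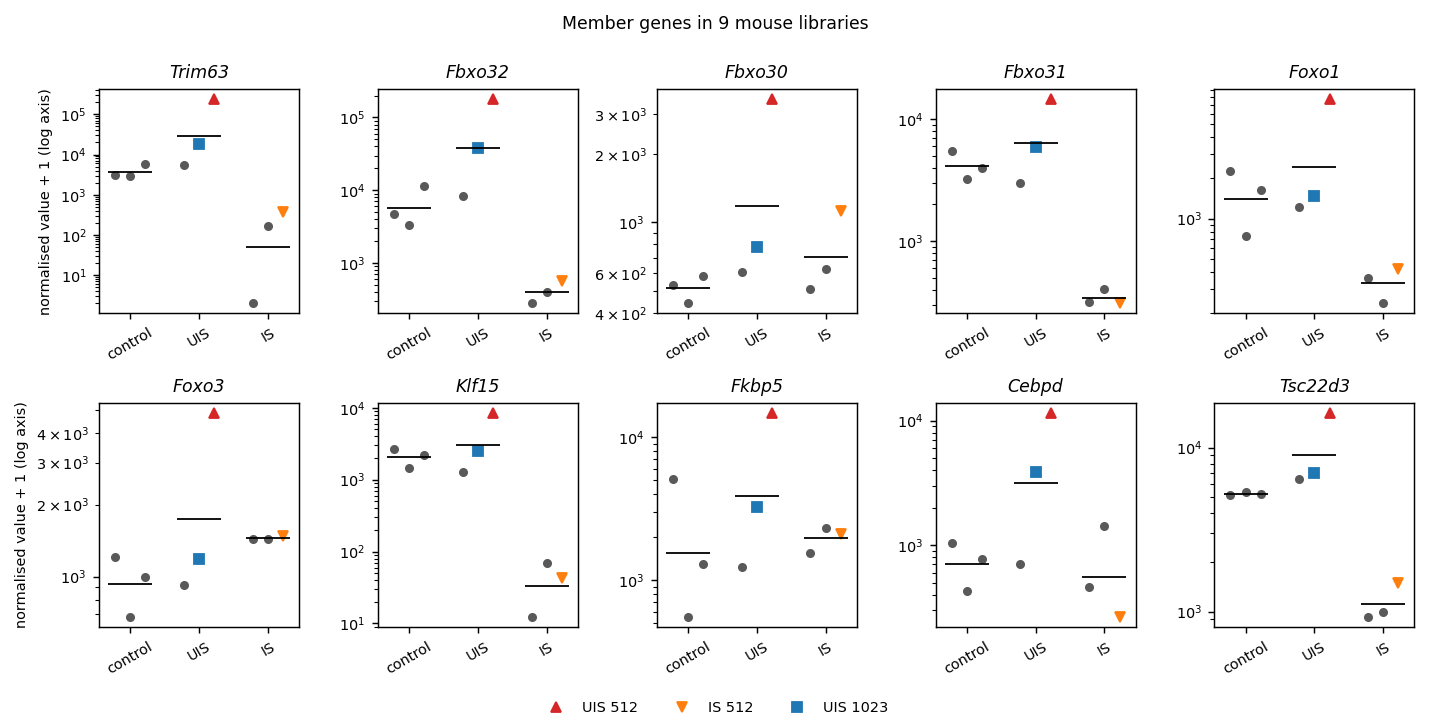
Normalised value + 1 (log axis) of the 10 genes in the 9 mouse libraries, 1 point per library and a bar at each group's mean on the log scale. UIS 512 (upward triangle) is the highest library in every gene, UIS 1023 (square) exceeds the controls more than 2-fold in Trim63, Fbxo32 and Cebpd, and the growth of animal 512 is the downward triangle.

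As a group, mouse UIS against control gave no member called by limma, and none of 14792 genes (0%). At an unadjusted p under 0.05, limma found 3 members and 1621 genes; edgeR called 0 members and 0 genes. DESeq2 called 3 members, Trim63, Fbxo32 and Cebpd, and 342 genes. The limma difference was 2.92 for Trim63 (SE 1.23, adjusted p = 0.454), 2.76 for Fbxo32 (SE 1.05, adjusted p = 0.448) and 2.17 for Cebpd (SE 0.92, adjusted p = 0.456). All 10 differences were positive. Without UIS 512 the values were 1.39 for Trim63, 1.64 for Fbxo32 and 1.23 for Cebpd, and Foxo1 (-0.05) and Klf15 (-0.18) stood below 0. The difference between the Spalax and the mouse response was tested as an interaction over 10683 genes shared by symbol, and limma called no member and no gene (0%). At an unadjusted p under 0.05 it found 0 members and 863 genes, edgeR called 0 of either, and DESeq2 called 0 members and 56 genes.

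Other genes of the pathway were taken from lists chosen with earlier results known. Of 18 further genes of the ubiquitin ligase list, 20 or more measured autophagy and atrophy genes, 28 or more of the glucocorticoid system and 25 or more of the insulin, IGF, myostatin and cytokine inputs, none was called by limma between control and UIS or between control and tolerant Spalax muscle, or between control and UIS mouse muscle. Their median differences in Spalax UIS against control were 0.02, 0.18, 0.40 and 0.26, beside -0.03 over all genes tested. These list medians include granuloma UIS 976 and are not given without it. The median of the 10 members in this comparison was 0.60 with 976 and 0.035 without it. By the 2-fold line, 9.56% of all genes passed in granuloma UIS 976 and 2.22% in tolerant 2375. Of 29 glucocorticoid genes measured, 11 passed in 976 and 6 in 2375, with Ddit4, Errfi1, Glul, Pdk4 and Lpin1 passing in each. In these libraries 14.3% and 7.45% of all genes lay at or under the lowest control divided by 2. List genes that did so are not counted here, so the list counts in this paragraph give rises only. Of the ligase list 3 of 18 passed in 976 (Traf6, Cblb and Ubr2). Of 20 autophagy and atrophy genes measured, 5 passed in 976 and 1 in 2375, and Gabarapl1 passed in both.

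Pdk4, a pyruvate dehydrogenase kinase gene, stood at 805 to 5062 in control Spalax. It stood at 144201 in tolerant 2375, against 1325 to 1996 in the other 3 tolerant animals, and at 12427 and 11065 in granuloma UIS 600 and 976. Zbtb16, a zinc finger gene strongly inducible by glucocorticoids, stood at 172 to 1186 in the controls, 2119 in 2375, 3397 in 976 and 471 to 1891 in the other 6 injected animals. Nr3c1, the glucocorticoid receptor gene, stood at 17283 in 976 and at 3191 to 5795 in the other 11 muscle libraries, 2375 included at 4988. Per1, a clock gene that glucocorticoids also induce, stood at 3170 in 976 and 5409 in 2375, against 1588 to 2923 in the controls and 1197 to 3911 in the other 6 injected animals, so 976 lay within their range.

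The genes examined beside these did not all move with the members. Cdkn1a, the p21 cell cycle inhibitor and an atrophy-linked gene, stood at 4011 in 976 and 131 in 2375. It ran from 50.7 to 68.6 in the controls and from 84.4 to 638 in the other 6 injected animals. Every injected animal thus lay above every control, with 2375 inside the range of those 6. Mstn, the muscle growth inhibitor myostatin, stood at 58.9 in 976 and 405 in 2375, against 737 to 2699 in the controls and 317 to 1661 in the other injected animals. In mice it stood at 8442 in UIS 512 against 867 to 1312 in the controls. Igf1, the growth factor, stood at 63.6 in 976 and 56.3 in 2375, with 93.6 to 322 in the controls and 84.6 to 1350 in the other injected animals. Gadd45a, a stress gene of denervated muscle, stood at 640 in 976 and 159 in 2375, with 115 to 424 in the controls and 148 to 592 in the other injected animals.

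In mouse UIS 512, 8 of 18 ligase-list genes, 15 of 24 autophagy and atrophy genes and 8 of 29 glucocorticoid genes passed the 2-fold line, against 11% of all genes. A further 7 of the 29 glucocorticoid genes lay at or under the lowest control divided by 2, a share near the 20% of all genes that did. Sesn1, a FOXO target, stood at 24390 in UIS 512 against 1017 to 1894 in the mouse controls. Pdk4 stood at 221510 against 10570 to 28050, and Zbtb16 at 7655 against 561 to 1920.

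The patterns most like Trim63 and Fbxo32 were sought over the 12 Spalax muscle libraries, by Pearson's r to the mean log2 value of that pair among 11851 genes with a mean of at least 50. The nearest 5 were Srpr (r = 0.972), Slc3a2 (0.965), Vldlr (0.964), Rev3l (0.963) and Hbp1 (0.960). Srpr, a subunit of the signal recognition particle receptor, stood at 4091 to 4795 in the controls, 11087 in 2375 and 9370 in 976. Without 976 the 5 values were 0.931 to 0.966, and without both 976 and 2375 they were 0.491 to 0.878, so they rest in large part on those libraries. Among the members r was 0.929 for Foxo3, 0.900 for Fbxo30, 0.895 for Klf15, 0.859 for Cebpd, 0.813 for Fkbp5, 0.785 for Foxo1, 0.621 for Tsc22d3 and 0.229 for Fbxo31. Without both libraries Foxo1 stood at -0.28 and Fkbp5 at 0.053.

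Growth tissue was compared with the opposite side of the same animals. In the granuloma bearers 5 of the 10 genes were called lower in IS, against 12.6% of 14735 genes called lower and 24.3% called in either direction. In the fibrosarcoma bearers 4 were called lower, against 19% of 14696 genes lower and 36.3% in either direction. In mice 6 were called lower, against 22.3% of 15220 genes lower and 45.1% in either direction. No member was called higher. Without any 1 of the 4 granuloma libraries no member kept its call, nor did any other gene. Without either fibrosarcoma UIS library no member kept its call, in fits that leave a group of 1 library. Between tolerant muscle and the IS of all 4 tumor-bearing Spalax, 5 were called lower in IS, against 24% of 14578 genes lower and 46.4% in either direction.

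Trim63 was low in the Spalax growths. Its values were 10.9 in IS 600, 7.85 in IS 976, 9.84 in IS 2240 and 1.80 in IS 2230, resting on 15, 13, 16 and 3 reads. Mouse IS values were 1.03 in 1019 (2 reads), 167 in 1023 and 369 in 512. The IS minus UIS difference was -10.13 in granuloma (SE 1.09, adjusted p = 0.00785), -9.34 in fibrosarcoma (SE 0.74, adjusted p = 0.00390) and -9.15 in mice (SE 2.22, adjusted p = 0.0174). Granuloma IS 976 thus held 7.85 while the other side of that animal held 36366, the second highest value in Spalax.

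Fbxo32 stayed readable in the growths, at 75.5 in 600, 45.9 in 976, 348 in 2240 and 63.0 in 2230, and at 280 to 571 in the mice. Its differences were -8.33 in granuloma (SE 0.72, adjusted p = 0.00577), -4.32 in fibrosarcoma (SE 0.85, adjusted p = 0.0227) and -6.58 in mice (SE 1.04, adjusted p = 0.00470). Klf15 differed by -5.45 (SE 1.39, adjusted p = 0.0439), -3.72 (SE 0.44, adjusted p = 0.00753) and -6.51 (SE 0.88, adjusted p = 0.00310) in the same order. Its Spalax IS values ran from 27.0 to 97.3. Fbxo31, with IS values of 816 to 1401 in Spalax, differed by -1.59 in granuloma (SE 0.32, adjusted p = 0.0263), -1.21 in fibrosarcoma (SE 0.33, adjusted p = 0.0491) and -4.21 in mice (SE 0.55, adjusted p = 0.00293). Under scaling by total reads the Spalax Fbxo31 differences were -0.85 and -0.40 and not called, and the granuloma difference of Klf15 was -4.71 and not called. Without a filter on low values the latter was -5.45 and not called. The fibrosarcoma call of Fbxo31 was also lost with edgeR, with a pseudocount of 0.1 and without a filter on low values.

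Tsc22d3 differed by -3.12 in granuloma (SE 0.59, adjusted p = 0.0223) and -3.01 in mice (SE 0.42, adjusted p = 0.00331). In fibrosarcoma its IS values were 5163 in 2230 and 836 in 2240, and the difference of -2.04 was not called (SE 0.90, adjusted p = 0.144). Foxo1 fell by 2.86 in mice (SE 0.71, adjusted p = 0.0186), where IS values were 235 to 421. In Spalax its differences of -3.17 in granuloma (SE 1.32, adjusted p = 0.135) and -1.88 in fibrosarcoma (SE 0.76, adjusted p = 0.120) were not called.

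Fbxo30, Foxo3, Fkbp5 and Cebpd were not called in any of these comparisons by limma. Foxo3 held 704 to 1298 in Spalax IS and 1439 to 1474 in mouse IS, above every mouse control. Fkbp5 held 200.6 to 1718 in Spalax IS and 1556 to 2323 in mouse IS. Cebpd was 0.86 higher in fibrosarcoma IS than UIS (SE 0.72, adjusted p = 0.396), and differed by -2.50 in mice (SE 1.08, adjusted p = 0.102) and -1.91 in granuloma (SE 1.39, adjusted p = 0.347). Size factors in growth libraries differed from total reads, and scaling by total reads raised the median difference of all genes by 0.745 in granuloma, 0.827 in fibrosarcoma, 1.10 in mice and 0.663 for tolerant against IS. Under it Fbxo30, Foxo3 and Fkbp5 were above 0 in fibrosarcoma and in mice, where the size factors put them below 0, and none was called.

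**Figure D5:**
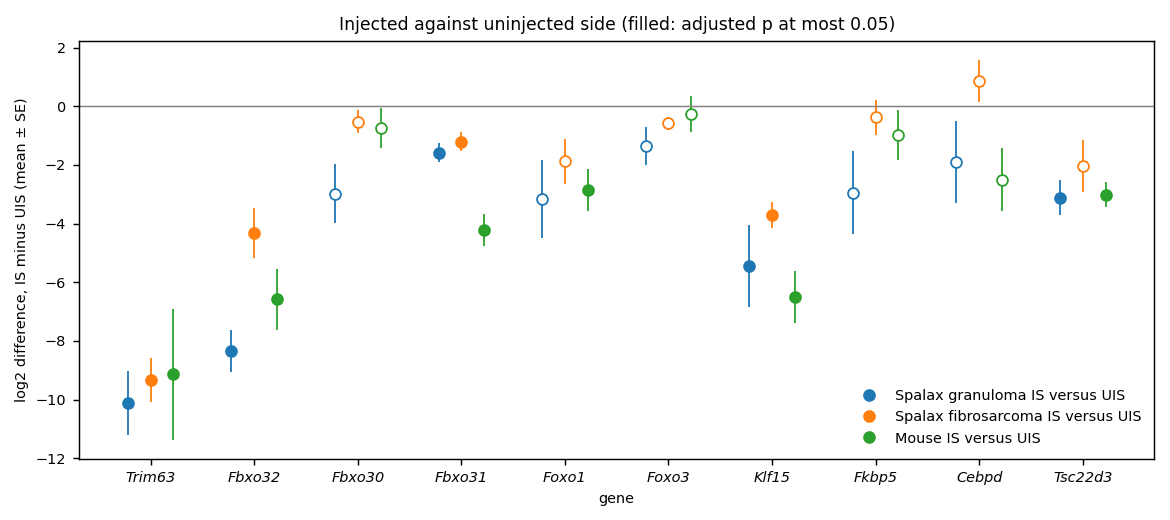
Log2 difference between injected and uninjected side (points, IS minus UIS) with SE (bars) for the 10 genes in granuloma and fibrosarcoma of Spalax (2 against 2 libraries each) and in mice (3 against 3); filled points were called by limma. Trim63, Fbxo32, Klf15 and Fbxo31 are called in all 3, Tsc22d3 in granuloma and mice, Foxo1 in mice.

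Skeletal muscle markers summed to 487 and 7889 in granuloma IS and 990 and 1472 in fibrosarcoma IS, against 1455254 to 2868421 in UIS of the same animals. In mice they summed to 294 to 88161 in IS against 1920857 to 4424968 in UIS. Fibroblast markers summed to 114152 to 1889378 in Spalax IS and 13293 to 43160 in UIS. The part of the missing muscle in the lower levels of the muscle ligase genes was not tested.

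Whether the IS to UIS difference varied by growth or species was tested by interaction. Between fibrosarcoma and granuloma no member was called by limma, and none of 14258 genes (0%). With p unadjusted and under 0.05 it found 1 member, Fbxo32, and 696 genes; edgeR called 0 members and 0 genes, and DESeq2 1 member, Fbxo32, and 77 genes. The Fbxo32 interaction was 4.02 (SE 1.26, adjusted p = 0.934), the drop in fibrosarcoma being smaller. Between Spalax fibrosarcoma and mouse no member was called by limma, against 3.95% of 11085 shared genes. At an unadjusted p under 0.05 it found 2 members, Fbxo31 and Klf15, and 2390 of the 11085 genes, a similar share. The edgeR fit called 0 members and 391 genes. DESeq2 called 2 members, Fbxo31 and Cebpd, and 1711 genes. The Fbxo31 interaction was 3.00 (SE 0.79, adjusted p = 0.0727), with a smaller drop in Spalax.

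The pathway lists were compared between IS and UIS as well, where 12.6%, 19% and 22.3% of all genes were called lower in granuloma, fibrosarcoma and mice, and 11.7%, 17.4% and 22.8% higher. In the ligase list 8 of 18 genes were called lower in granuloma, 9 in fibrosarcoma and 8 in mice, and 0, 0 and 1 were called higher. Trim54 (MuRF3) differed by -10.65 (SE 1.22, adjusted p = 0.00844) in granuloma and -12.96 (SE 0.39, adjusted p = 0.000652) in fibrosarcoma. Asb2, a muscle SOCS-box ligase gene, differed by -9.43, -8.83 and -6.29 in granuloma, fibrosarcoma and mice. Of the glucocorticoid list, 10 of 27, 13 of 28 and 14 of 29 genes were called lower and 1, 2 and 1 higher. Anxa1, which encodes the anti-inflammatory annexin A1, was called higher in all 3, by 3.16, 2.50 and 3.27. Pdk4 differed by -7.03 in granuloma (SE 0.37, adjusted p = 0.00470) and -8.21 in mice (SE 0.93, adjusted p = 0.00212).

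Of the insulin, IGF, myostatin and cytokine list, 4 of 28 genes were called lower and 3 higher in granuloma, 8 of 29 lower and 4 higher in fibrosarcoma, and 7 of 30 lower and 6 higher in mice. In granuloma and mice these shares were near those of all genes. Mstn differed by -7.42 in fibrosarcoma (SE 0.51, adjusted p = 0.00296) and -8.81 in mice (SE 1.49, adjusted p = 0.00570). Igf1 was higher in IS than UIS by 3.16 in granuloma (SE 0.74, adjusted p = 0.0364) and by 1.51 in mice (SE 0.47, adjusted p = 0.0385). Mouse UIS values of 190 to 284 lay below every mouse control (511 to 1101), and mouse IS values of 418 to 1233 overlapped the controls. In fibrosarcoma, Igf1 stood at 3245 in IS and 136 in UIS of 2230, and at 61.5 in IS and 468 in UIS of 2240. Inhba, which encodes the activin A subunit, rose by 6.05 in granuloma (SE 1.30, adjusted p = 0.0296) and by 5.59 in mice (SE 0.89, adjusted p = 0.00479). Of the autophagy and atrophy list, 9 of 20, 8 of 20 and 6 of 24 genes were called lower and 3, 2 and 2 higher, the mouse share of lower calls being near the 22.3% of all genes. Runx1, a transcription factor of denervated muscle and of many other cells, was called higher in all 3, by 5.06, 4.20 and 3.24.

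On the mouse genome (GRCm38, GENCODE vM21) 5 of the 10 genes, Trim63, Fbxo30, Foxo3, Klf15 and Tsc22d3, overlap no other annotated gene. Trim63 lies on chromosome 4 from 134315120 to 134329629 on the plus strand. Fbxo32 lies on chromosome 15 from 58175879 to 58214932 on the minus strand and overlaps the antisense gene Gm15943. That gene was counted at 20.1 to 79.4 in the mouse controls, 150, 341 and 2398 in UIS of 1019, 1023 and 512, and 0 to 2.11 in IS. As the strand setting of the counting is not given in the sources used here, its reads and those of Fbxo32 cannot be told apart. Cebpd, on chromosome 16 from 15887286 to 15891031, overlaps Spidr on the other strand, which stood at 746 in UIS 512 against 76.3 to 183 in the controls.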

How the data were processed

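Total RNA of neck muscle and growths was sequenced by the authors with a stranded kit, trimmed with Trimmomatic, mapped with TopHat and counted per gene with HTSeq; the submitters' processing notes name TopHat 1.4.1, DESeq and the build GRCm38, with no role. The deposited values are a signal, reads per gene divided by a size factor for each library. Every non-zero value was a whole multiple of 1 library's step, within 0.05 reads, in 100% of cases, so whole reads could be recovered. In the Spalax table, 2387 lines held a comma inside the gene name, and values were read from the line end.

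limma 3.58.1 (trend) was fitted on log2(value + 1), for genes that reached 10 in enough libraries to fill the smaller group, over the groups compared only. The fits covered 8 comparisons and 3 interactions. edgeR and DESeq2 on recovered reads, another pseudocount (0.1), no filter, scaling by total reads, 1 model per species, the animal as a block and each library left out were alternatives. The study used edgeR and DESeq2; limma was the main test because deposited values are not counts. The scripts were tested on simulated counts. The p-values set group differences against the spread between libraries of a group. The main IS against UIS fits did not use the pairing of the sides, which only the alternative with the animal as a block did.

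IS and UIS libraries of 1 animal are paired by the specimen label. Their deviations from the group means correlated at 0.00925 in granuloma and -0.00186 in fibrosarcoma, and at 0.125, 0.0469 and 0.178 in the mice.

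The members and the gene lists were chosen with earlier results of these data known. Named beside the members were Nr3c1, Per1, Zbtb16, Cdkn1a, Pdk4, Gadd45a, Mstn and Igf1, and from each list up to 3 rises and 3 falls called without overlap. The genes named past the 2-fold line, Sesn1, Gm15943, Spidr and Srpr's values were chosen after values were seen. Promoter and protein sequences were not used here. Endothelial and erythroid markers were summed as well: 5813 to 10885 and 7 to 375 in Spalax muscle, and 5903 to 13496 and 5566 to 80158 in mouse muscle.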

Additional observations from a re-analysis of the deposited data

Results flagged for a closer look

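Each of the 10 members was examined in 4 Spalax groups of 4 libraries: control, tolerant, UIS and IS. Values of 1 library far from the other 3 of its group, on the log2 scale, were found 8 times. The measure was the gap to the nearest library divided by the group's range (Dixon's test). For independent groups of normally distributed values, chance would give such a flag in about 5%. Here the groups of different members share the same libraries, so the number of flags cannot be set against that rate. Since libraries 976 and 2375 were singled out on these same values, the flags are no independent support. The share of flags over all genes was not computed. In tolerant muscle the library was 2375 for Fbxo30 (0.834), Foxo3 (0.893) and Fkbp5 (0.869). In UIS muscle it was 976 for Trim63 (0.954), Klf15 (0.868), Cebpd (0.928) and Tsc22d3 (0.913), and granuloma UIS 600 for Fbxo31 (0.906). No member's interaction was called by limma.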

How the results depend on the processing

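The 2-against-2 comparisons set the limit. In granuloma the 5 members called became 9 with DESeq2 and 3 under scaling by total reads. Leaving out any 1 of its 4 libraries lost every call, of members and of all other genes alike. In fibrosarcoma (4 called) calls were lost or gained with the library left out, again for members and all genes alike. No member was called there without UIS 2230 or 2240, and more were called without IS 2230. The lone library left in a group is then assumed to vary like the other group. With the animal as a replicate block the counts were 5 in granuloma, 4 in fibrosarcoma and 6 in mice, as without it, and the block changed no member's call. In the Spalax and mouse interaction it took the genes called from 438 to 38.

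In mouse UIS against control (0 called), DESeq2 called 3 members. In the fibrosarcoma against granuloma interaction it called 1, and in the Spalax fibrosarcoma against mouse interaction 2. In the latter limma called 1 member without mouse UIS 1019 and 2 without mouse UIS 512. Its calls over all genes also rose and fell with the library left out. Leaving out 1 library gave 5 to 7 members and 4258 to 7289 genes in mouse IS against UIS. It gave 5 to 5 members and 5034 to 7879 genes in tolerant against IS. In each muscle comparison it gave 0 to 0 members and at most 4 genes. DESeq2 called 516, 60 and 38 genes in the 3 Spalax muscle comparisons (limma 0, 0 and 1), 5383 in granuloma (3581), 342 in mouse muscle (0), and 77, 1711 and 56 in the interactions (0, 438 and 0). One model over all Spalax libraries called 6314 genes in granuloma. The causes were not tested. No called difference of a member turned its sign under any alternative run. Among differences not called, the sign turned in 99 runs of 1 member under 1 alternative, 72 of them with 1 library left out. Some differences turned in several of these runs.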
